A study of Mus musculus with 6 samples.

Results

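Liver ILC1-like cells were picked out of droplet single-cell RNA-Seq libraries of liver non-parenchymal cells (LNPCs), the liver cells other than hepatocytes. Cells with under 5000 detected genes and under 5% mitochondrial UMIs (unique molecular identifiers, each standing for 1 captured transcript) were kept. A kept cell was counted as ILC1-like when it held at least 2 UMIs of Ncr1 and Klrb1c together, at most 1 UMI of Cd3d, Cd3e and Cd3g, at least 1 UMI of Cxcr6 or Itga1, no UMI of Eomes and at most 1 UMI of Kdr and Ptprb. The members were thus chosen by the measured UMIs of these gate genes. The gate held 242 of 27544 kept cells, which is 0.879%.

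The cells came from male C57BL/6J mice, 8 weeks old at the start, in which nonalcoholic steatohepatitis (NASH) was induced by 24 weeks of high-fat diet. Over the final 8 of these weeks they were given DMSO as vehicle or the plant biflavone ginkgetin, intragastrically at a daily dose of 10 mg/kg. Both groups ate the high-fat diet, no library from chow-fed mice was analysed here, and there were 3 libraries per group. The group size in the methods equals the number of libraries, so each library may come from a single mouse, but the labels do not say so. The p-values measure the spread between these libraries, which may in part be technical and which edgeR pools in part over genes.

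ILC1s are innate lymphocytes without a rearranged antigen receptor that live in the liver sinusoids and do not circulate. They are relatives of natural killer (NK) cells. Both carry the activating receptor NKp46 (encoded by Ncr1) and NK1.1 (encoded by Klrb1c), and both depend on the transcription factor T-bet (encoded by Tbx21). Circulating NK cells need Eomes in addition and are rich in perforin and granzymes, whereas liver ILC1s are known for CD49a (encoded by Itga1), the chemokine receptor CXCR6, the death ligand TRAIL (encoded by Tnfsf10) and the interleukin 7 receptor.

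Vehicle replicates 1, 2 and 3 held 66, 29 and 74 ILC1-like cells, whereas ginkgetin replicates 1, 2 and 3 held 10, 14 and 49. The libraries as a whole held between 13128697 and 61796882 UMIs. The ILC1-like cells had median depths of 3905.5, 3475 and 5585 UMIs in the vehicle libraries and 2567.5, 2439 and 5867 UMIs in the ginkgetin libraries. Summed over these cells, a library held between 23960 UMIs (ginkgetin replicate 1) and 471365 UMIs (vehicle replicate 3), so that a count of 0 allowed up to 125 and 73.2 CPM (the UMIs of a gene divided by all UMIs of the summed cells and scaled to 1000000) in ginkgetin replicates 1 and 2 and at most 28.7 CPM in the other libraries. Replicate 3 stood apart from replicates 1 and 2 in both groups. It used another set of barcodes and gene symbols, with 506 symbols counted only there and 369 only in the others, and its ILC1-like cells had 23.3% (vehicle) and 15.4% (ginkgetin) of their UMIs in ribosomal protein genes, against 32.4% to 34.7% in the other libraries. Libraries shared between 0 and 85 barcodes, and no ILC1-like cell shared its barcode with one of another library.

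Within the gate, 226 cells held a UMI of Ncr1, 230 of Klrb1c and 214 of both. Cxcr6 was detected in 223 cells, Itga1 in 90 and both in 71, so most cells entered through Cxcr6. Just inside the limits lay 29 cells with exactly 2 UMIs of Ncr1 and Klrb1c, 68 with exactly 1 UMI of Cxcr6 or Itga1, 14 with 1 Cd3 UMI and 21 with 1 Kdr or Ptprb UMI. Just outside lay 19 cells that were 1 UMI short on Ncr1 and Klrb1c, 7 with 2 Cd3 UMIs, 6 with 1 Eomes UMI, 3 with 2 UMIs of Kdr and Ptprb, 7 with too many mitochondrial UMIs and 143 with no UMI of Cxcr6, Itga1 or Eomes. These counts describe the rule and were not tested.

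For comparison, 93 NK-like cells were taken with the same limits on Ncr1, Klrb1c, Cd3 and Kdr or Ptprb, but with a UMI of Eomes and none of Cxcr6 or Itga1. A further 9 cells held both kinds of UMI. CD3-positive NK-receptor cells, with at least 2 Cd3 UMIs and the same NK receptor limit, numbered 483. Vehicle replicates 1, 2 and 3 had 16, 12 and 9 NK-like cells, ginkgetin replicates 1 and 2 had 7 each and ginkgetin replicate 3 had 42. The CD3-positive cells made up 7.33% of the kept cells of ginkgetin replicate 3 and between 0.405% and 1.33% of the other libraries.

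Genes outside the gate bore on the label. In the pooled ILC1-like cells, 126 of 242 held a UMI of Tnfsf10, 138 of Il7r and 71 of both, and Cd200r1, an inhibitory receptor of ILC1s, was detected in 110. Tbx21 was at 66.1, 86.1 and 123 CPM in the vehicle libraries and at 83.5, 24.4 and 164 CPM in the ginkgetin libraries. Il23r, which marks ILC3s, and the cytokines Il22, Il13 and Il17a were at 0 of 1200336 UMIs, which allows up to 2.5 CPM. Il1rl1, the interleukin 33 receptor of ILC2s, had 1 UMI, whereas Gata3, which ILC1s also express at a low level, was at 90.0 CPM. Zbtb16, the factor that T cells of the NKT lineage depend on, was at 8.33 CPM against 44.8 CPM in the CD3-positive cells. Kit, a gene of the ILC2 and ILC3 list, was at 67.5 CPM against 43.9 CPM in the NK-like cells. The 11 listed ILC2 and ILC3 genes together summed to between 83.5 and 195 CPM over the libraries, with 2 to 4 of them detected, and Gata3 and Kit gave nearly all of these UMIs.

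Transcripts of the T cell receptor could be compared only in replicate 3, whose symbol set counts them. Trac, the constant region of the alpha chain, was at 8.49 CPM (vehicle) and 6.96 CPM (ginkgetin) in the ILC1-like cells and at 275 and 578 CPM in the CD3-positive cells. Trbc1 was not low in the same way, at 751 and 881 CPM in the ILC1-like cells, 413 and 436 CPM in the NK-like cells and 374 and 701 CPM in the CD3-positive cells. Trbc2 was at 437 and 477 CPM in the ILC1-like cells, 170 and 181 CPM in the NK-like cells and 1393 and 1372 CPM in the CD3-positive cells. Beta chain constant region transcripts were thus found in cells with almost no alpha chain transcript.

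Transcripts of other liver cells were also found in the gate, and some results below are also given without the cells that held the most of them. At least 3 UMIs of 1 other lineage's marker list, the T cell list not counted, were held by 19, 10 and 61 ILC1-like cells of the vehicle libraries and by 0, 3 and 19 of the ginkgetin libraries. For the T cell list outside the gate, which holds receptor genes that only the symbol set of replicate 3 counts, these numbers were 27, 9 and 72 (vehicle) and 0, 3 and 47 (ginkgetin), and those cells were not removed in any alternative. The 7 hepatocyte markers summed to between 132 and 717 CPM in the vehicle libraries and between 83.5 and 512 CPM in the ginkgetin libraries. The 10 macrophage and monocyte markers summed to between 293 and 419 CPM (vehicle) and between 87.0 and 317 CPM (ginkgetin). All 7 hepatocyte markers were detected in each vehicle library, and between 2 and 7 in the ginkgetin libraries. The 8 endothelial markers outside the gate went the other way, at 132, 134 and 123 CPM (vehicle) against 167, 512 and 195 CPM (ginkgetin) without overlap. The 1 UMI of Kdr or Ptprb that the gate allows was held by 0, 1 and 2 vehicle and 1, 8 and 9 ginkgetin cells. Igkc, an immunoglobulin gene that also only the symbol set of replicate 3 counts, was at 21622 CPM in the ILC1-like cells of vehicle replicate 3 and at 90.5 CPM in those of ginkgetin replicate 3.

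The first comparison asked how ILC1-like cells differed from the NK-like cells of the same libraries. Counts were summed per library and gate, and the 3 libraries with at least 10 cells of each gate (vehicle replicates 1 and 2 and ginkgetin replicate 3) were compared with edgeR's quasi-likelihood test, with the library as a block. A call needed more than a 2-fold change and an adjusted p (Benjamini-Hochberg) below 0.05. ILC1-like cells had higher Xcl1, Il7r, Tmem176a, Rgs1, Ltb, Gzmc and Cd200r2 and lower Gzma, Prf1, Klf2, Zeb2, Irf8 and Ly49 receptor genes. Of 2199 genes tested, 117 were called (5.32%), 59 higher (2.68%) and 58 lower (2.64%) in the ILC1-like cells. The median log2 fold change of all tested genes was 0.00.

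Of 20 ILC1 genes listed outside the gate, 17 were tested, 15 were higher, 1 was lower and the median log2 fold change was 2.78. Of 23 NK cell genes, 15 were tested, 12 were lower, none was higher and the median was -3.05. A gene of low counts passed the filter mainly through the gate in which it was high, so these counts describe the lists and do not test them. Itgam, S1pr5, Klrg1, Itga2, Il2ra, Zfp683 and Tnf did not pass it, and pooled levels or UMI counts are given instead for all but Il2ra. With cells thinned as described below, Il2ra was detected in 2.35% of ILC1-like and 0% of NK-like cells (means over libraries).

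**Figure D1:**
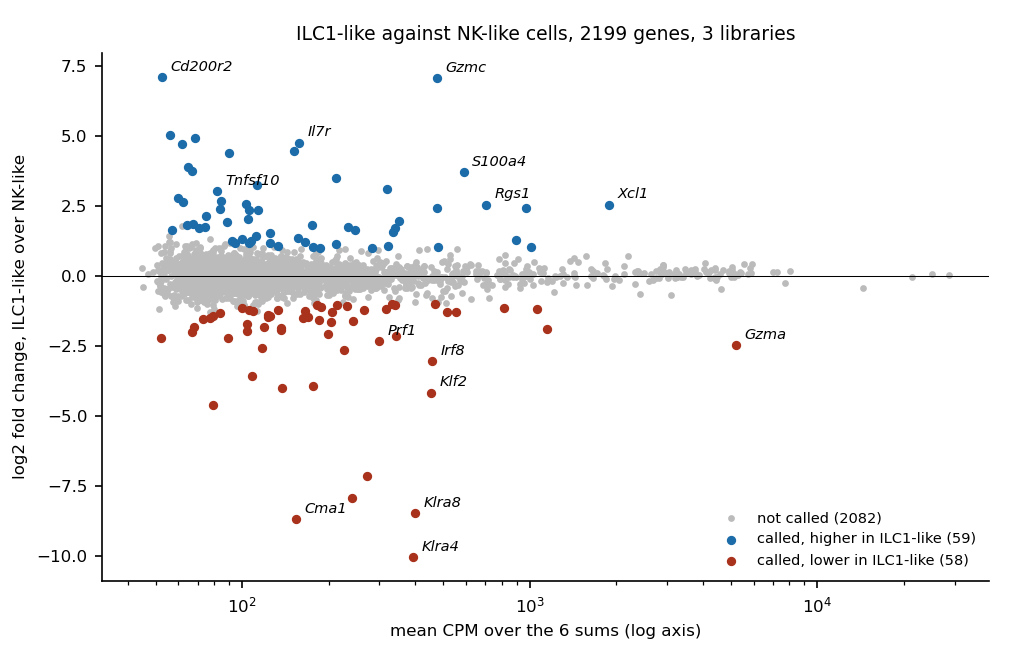
Each point is 1 of the 2199 genes tested between ILC1-like and NK-like cells in 3 libraries, plotted by mean CPM (log axis) and log2 fold change (above 0 is higher in ILC1-like cells). The 59 genes called higher are blue and the 58 called lower are red, with Gzmc and Cd200r2 at the top and Klra4, Cma1 and Klra8 at the bottom.

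Receptors and surface molecules separated the gates. Il7r, which transmits the survival signal of interleukin 7, was at 261, 345 and 274 CPM in the vehicle libraries (replicates 1, 2 and 3) and at 292, 171 and 292 CPM in the ginkgetin libraries, against 46.5, 0, 0, 0, 61.1 and 0 CPM in the NK-like cells. Every ILC1-like value lay above every NK-like value (log2 fold change 4.76 ± 0.55 SE, edgeR adjusted p = 4.45e-07). Cd200r1 was higher by 4.95 ± 0.72 on the log2 scale (edgeR adjusted p = 1.90e-05), with no UMI in the ILC1-like cells of ginkgetin replicate 2. Cd200r2, its neighbour in the same receptor family, had 132 UMIs in the ILC1-like cells and 0 in the NK-like cells. Its levels in the ILC1-like cells ran from 86.1 to 167 CPM over the 6 libraries. The activating or inhibitory receptors Cd160 (3.11 ± 0.38), Cd226 (2.56 ± 0.40) and Klrb1b (1.72 ± 0.24) were also called higher, as was the chemokine receptor Cxcr3 (1.93 ± 0.40), all as log2 fold changes with SE.

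Tnfsf10, encoding TRAIL, was at 165, 95.7 and 221 CPM in the vehicle libraries and at 41.7, 122 and 178 CPM in the ginkgetin libraries. The NK-like cells had 31.0, 0, 0, 0, 0 and 19.6 CPM in the same order, below the ILC1-like value of each library (log2 fold change 3.02 ± 0.48, edgeR adjusted p = 5.03e-05). Tmem176a and Tmem176b, 2 membrane proteins whose genes lie head to head on mouse chromosome 6, were both higher. Tmem176a was at 382, 316 and 354 CPM in the vehicle libraries and 125, 146 and 164 CPM in the ginkgetin libraries, against at most 61.1 CPM in the NK-like cells (4.46 ± 0.53, edgeR adjusted p = 7.24e-07), and Tmem176b was higher by 3.49 ± 0.42.

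Soluble factors followed. Xcl1, a chemokine that attracts cross-presenting dendritic cells, was at 3698, 3570 and 3607 CPM in the vehicle libraries and at 2546, 1805 and 2092 CPM in the ginkgetin libraries. The NK-like cells had between 240 and 1253 CPM, so the gates did not overlap (log2 fold change 2.55 ± 0.23, edgeR adjusted p = 3.50e-09). Ltb, which encodes lymphotoxin beta, was at 610 to 1085 CPM against 83.4 to 445 CPM (2.42 ± 0.26, edgeR adjusted p = 1.29e-07). Ifng, encoding interferon gamma, was at 48.8 to 212 CPM in the ILC1-like cells and 61.1 to 1069 CPM in the NK-like cells and was not called (-0.44 ± 0.28, edgeR adjusted p = 0.556). Tnf was not tested. It had 72 UMIs in the ILC1-like cells (60.0 CPM) and 1 in the NK-like cells. Of the 16 listed cytokines and chemokines 7 were tested, and Xcl1 and Ltb were the 2 called, beside 5.32% of all genes.

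The granzymes did not move together. Gzma, a trypsin-like granzyme, was at 540, 1771 and 189 CPM in the ILC1-like cells of the vehicle libraries and at 960, 48.8 and 3220 CPM in those of the ginkgetin libraries. The NK-like cells held 7270, 8084, 9353, 5395, 5869 and 10464 CPM in the same order, every one above every ILC1-like value (-2.47 ± 0.24, edgeR adjusted p = 1.24e-08). Among the ILC1-like cells 47 of 242 held a UMI of Gzma, and their library levels spread from 48.8 to 3220 CPM. Gzmb, the caspase-activating granzyme, was at 365 to 1463 CPM against 367 to 1287 CPM (0.17 ± 0.20, edgeR adjusted p = 0.792), and the 2 ranges overlapped almost completely.

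Gzmc, a granzyme of strongly activated and tissue-resident innate lymphocytes, was at 830, 1847 and 965 CPM in the vehicle libraries and at 0, 195 and 174 CPM in the ginkgetin libraries. In the NK-like cells 1 UMI was counted, in vehicle replicate 1 (15.5 CPM), and the other 5 libraries had none. The 932 UMIs of the ILC1-like cells came from 51 of 242 cells. Prf1, encoding the pore-forming perforin, was at 11, 0 and 149 CPM in the vehicle libraries and 0, 0 and 289 CPM in the ginkgetin libraries, lower than in the NK-like cells (-2.34 ± 0.27, edgeR adjusted p = 4.45e-07). Both of its higher values were from replicate 3, in the NK-like cells as well (777 and 1353 CPM).

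The Klra genes encode the Ly49 receptors, which are mouse receptors for MHC class I, and 5 of them were called lower in the ILC1-like cells. They belong to a list of 30 NK receptor genes, of which 19 were tested, 6 called lower and 4 called higher. Of all genes 2.64% were called lower and 2.68% higher. Klra8 had 1 UMI over all 242 cells, in vehicle replicate 1, whereas the NK-like cells had 837, 713 and 1020 CPM (vehicle) and 693, 1590 and 843 CPM (ginkgetin). Klra4 had 12 UMIs, all in vehicle replicate 3 (25.5 CPM), against 495 to 1590 CPM in the NK-like cells. Klra7 (13 UMIs against 191 in the NK-like cells), Klra3 (log2 fold change -3.95 ± 0.39) and Klra9 (-2.65 ± 0.33) were also called lower. Klra9 was not low in every library. The ILC1-like cells had it at 22.0, 9.57 and 10.6 CPM (vehicle) and 125, 390 and 139 CPM (ginkgetin), and in ginkgetin replicate 2 this was above the 245 CPM of the NK-like cells. The Klra genes lie side by side on chromosome 6 and are close copies, so reads could be split between them and the values of single members are uncertain. Klri2, a lectin-like receptor outside that family, was lower by a smaller amount (-1.62 ± 0.25).

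Other surface genes of mature NK cells were low. Itgam, encoding CD11b, had 3 UMIs (2.5 CPM) in the ILC1-like cells and 66 UMIs (171 CPM) in the NK-like cells, both pooled. S1pr5, a receptor needed for NK cells to leave tissue, was at 4.17 against 163 CPM, Klrg1 at 9.16 against 95.6 CPM, and Itga2, encoding the CD49b that marks NK cells, at 11.7 against 186 CPM, all pooled. Itga4, an integrin that binds VCAM-1, was called lower (-2.15 ± 0.22, edgeR adjusted p = 6.20e-08). Cma1, a mast cell chymase gene that NK-like cells of these libraries also held, had 103 UMIs in the NK-like cells and 9 in the ILC1-like cells, all 9 in vehicle replicate 3.

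Among 28 transcription factors 18 were tested, 5 were higher and 3 lower, beside 2.68% and 2.64% of all genes, with a median of 0.10. Klf2, which drives the tissue exit receptor gene S1pr1, was at 44.1, 38.3 and 178 CPM in the vehicle libraries and 0, 146 and 48.7 CPM in the ginkgetin libraries, below the 428 to 1010 CPM of the NK-like cells (-4.18 ± 0.26, edgeR adjusted p = 1.85e-12). Zeb2, a factor of terminal NK cell maturation, was also lower (-3.99 ± 0.38, edgeR adjusted p = 1.23e-08). Irf8, needed for NK cell responses to virus, was at 48.8 to 167 CPM against 428 to 1094 CPM (-3.05 ± 0.23, edgeR adjusted p = 1.27e-10). Ikzf2 (2.34 ± 0.39), Rora (2.65 ± 0.57), Ahr (2.78 ± 0.62), Tox (2.15 ± 0.47) and Maf (1.54 ± 0.35) were called higher. Tbx21, which both lineages need, was not called (-0.81 ± 0.29, edgeR adjusted p = 0.107), and Zfp683, encoding the residency factor Hobit, was not tested, with 23 UMIs in the ILC1-like and 0 in the NK-like cells.

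Of 12 cytokine receptor and signalling genes tested, 4 were lower and 1 was higher, beside 2.64% and 2.68% of all genes. Il18r1 and Il18rap, the 2 chains of the interleukin 18 receptor, were lower by log2 fold changes of -1.48 ± 0.28 and -1.09 ± 0.24, and Il12rb2 (-1.84 ± 0.47) and Ifngr1 (-1.01 ± 0.20) were lower too. Il18r1 was the ILC1 gene called in the direction opposite to its list. It was lower in 5 of 6 libraries and higher in ginkgetin replicate 1, at 292 against 198 CPM.

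Rgs1, a regulator of chemokine receptor signalling found in tissue-resident lymphocytes, was at 768, 976 and 1837 CPM (vehicle) and 1252, 1049 and 1890 CPM (ginkgetin), above the 73.7 to 294 CPM of the NK-like cells (2.55 ± 0.24, edgeR adjusted p = 1.23e-08). Cd69, the activation and retention marker, was not called (-0.51 ± 0.38, edgeR adjusted p = 0.605). Of 8 interferon response genes tested only Tap1, a peptide transporter, was called (1.18 ± 0.36), and of 19 immediate-early and heat shock genes only Ier2 (-1.03 ± 0.23), beside 5.32% of all genes, so these counts say nothing particular about either list. Podnl1, Klk8, Ckb, Inpp4b and Bcl2a1d were among the genes with the largest rises, with log2 fold changes from 3.76 to 5.05, and As3mt and the SLAM adaptor gene Sh2d1a among those with the largest falls (-4.61 ± 0.58 and -3.58 ± 0.43).

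**Figure D2:**
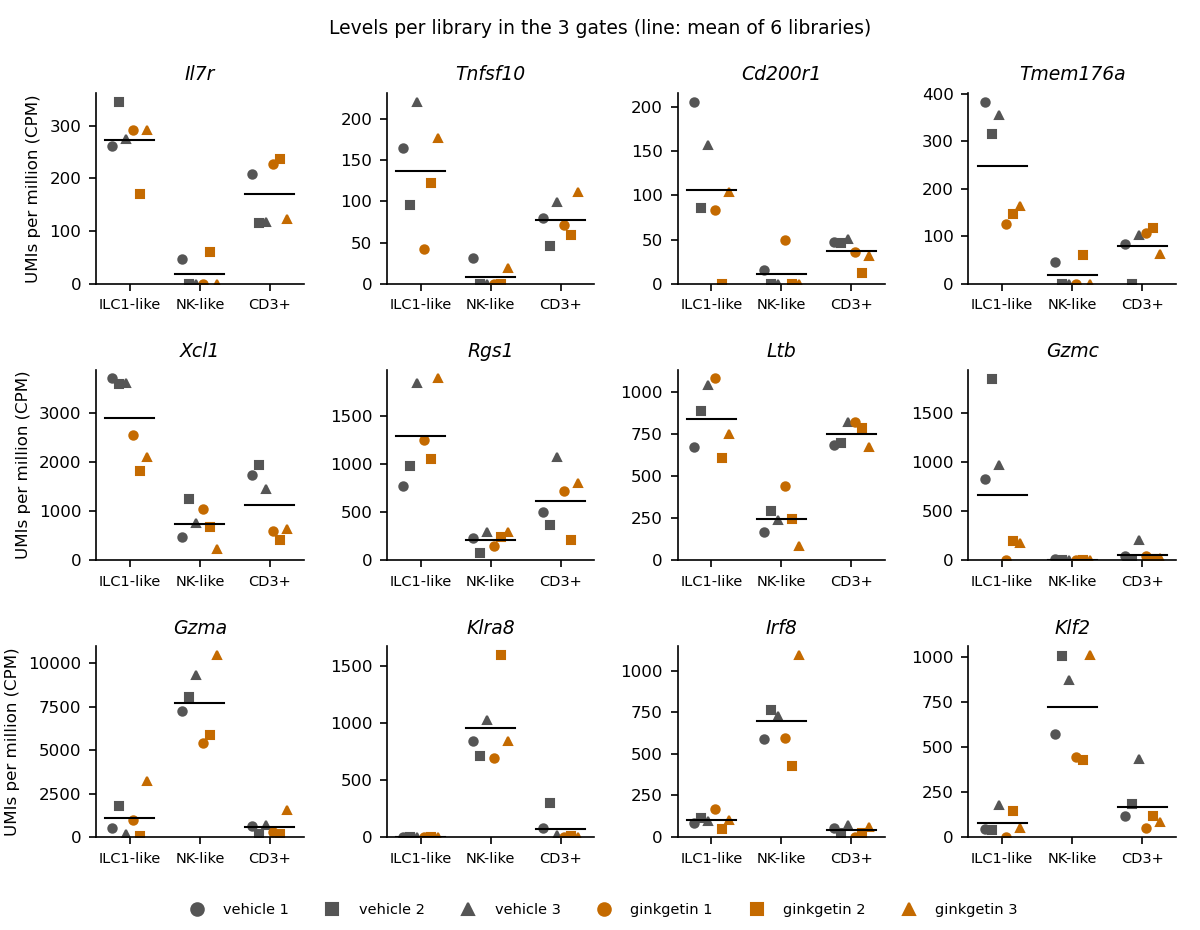
Level of 12 genes (CPM, linear axes from 0) in ILC1-like, NK-like and CD3-positive (CD3+) cells, with 1 symbol per library and a line at the mean of 6 libraries. Il7r, Xcl1, Rgs1 and Ltb of ILC1-like cells lie above all NK-like points, and Gzma, Klra8, Irf8 and Klf2 below them.

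The comparison rested on few NK-like cells. With all 6 libraries (at least 5 cells of each gate), 624 genes were tested and 39 called, 35 of them among the 117, and without ginkgetin replicate 3, 44 of 1176 genes were called, 41 of them among the 117.

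Promoters of 4 genes of these effector groups are shown because the factors of this lineage, T-bet and the RUNX proteins, bind short known motifs. The windows run from 250 to 11 bases before the transcript start in RefSeq (GRCm38.p6), 5′ to 3′ on the gene's strand. Capitals mark the RUNX motif TGTGGT or its reverse complement ACCACA and the T-box motif GGTGTGA or its reverse complement TCACACC.
Xcl1, chr1:164935533-164935772, minus strand: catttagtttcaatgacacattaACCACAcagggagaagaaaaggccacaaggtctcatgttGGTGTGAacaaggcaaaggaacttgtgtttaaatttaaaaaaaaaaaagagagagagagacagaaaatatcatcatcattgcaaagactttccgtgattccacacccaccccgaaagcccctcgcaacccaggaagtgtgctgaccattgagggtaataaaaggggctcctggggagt
Gzmc, chr14:56234668-56234907, minus strand: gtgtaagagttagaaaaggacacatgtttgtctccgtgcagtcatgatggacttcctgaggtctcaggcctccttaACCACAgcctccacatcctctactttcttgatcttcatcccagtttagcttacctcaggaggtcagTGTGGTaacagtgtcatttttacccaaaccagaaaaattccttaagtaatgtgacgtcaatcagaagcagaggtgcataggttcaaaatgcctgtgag
Gzma, chr13:113100992-113101231, minus strand: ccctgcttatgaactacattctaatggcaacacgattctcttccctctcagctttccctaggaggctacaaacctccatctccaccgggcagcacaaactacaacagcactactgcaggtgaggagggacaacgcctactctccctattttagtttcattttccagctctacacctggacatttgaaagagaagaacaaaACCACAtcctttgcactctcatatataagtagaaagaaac
Prf1, chr10:61297586-61297825, plus strand: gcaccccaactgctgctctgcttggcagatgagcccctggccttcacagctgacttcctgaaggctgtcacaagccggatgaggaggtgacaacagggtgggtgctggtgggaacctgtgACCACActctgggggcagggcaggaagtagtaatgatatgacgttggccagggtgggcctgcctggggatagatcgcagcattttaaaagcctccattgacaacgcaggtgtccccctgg
The Xcl1 window held a RUNX match 227 to 222 bases and a T-box match 188 to 182 bases before the start, and the annotation places 33 bases of an antisense exon of Gm20743 in it. Gzmc, higher in the ILC1-like cells, had RUNX matches at 174 to 169 and 108 to 103 bases, and Gzma and Prf1, which were lower, had 1 each, at 50 to 45 and 130 to 125 bases. Both motifs were searched on both strands and they share no base. Of 27025 gene symbols with a RefSeq promoter window of this length, 15.4% held the RUNX letters in any of their windows and 3.71% the T-box letters. Of the genes called higher, 9 of 44 with a window held the RUNX letters (20.5%) and 3 held the T-box letters (6.82%), and of those called lower 11 of 48 (22.9%) and 1 (2.08%). A match is a string of letters and not a measured binding site.

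To set the gates side by side at equal depth, each cell was thinned to 1000 UMIs and the share of cells with at least 1 UMI was taken per library for the 26 genes fixed for this. No cell was shallower than that. Xcl1 was detected in 78.9% ± 10.6 of ILC1-like cells (SD, n = 6 libraries) and 32.3% ± 12 of NK-like cells, Rgs1 in 57.2% against 18.9%, Ltb in 57.4% against 17.0% and Tmem176a in 21.3% against 2.38%. In the other direction Gzma was detected in 12.9% ± 11 against 87.9% ± 13, Klf2 in 4.04% against 44.5%, Irf8 in 12.6% against 40.2%, Klra4 in 0% against 42.5% and Klra8 in 0% against 40.4%. These 9 genes differed the same way in 6 of 6 libraries. The exact sign-flip test gave each the smallest two-sided p that 6 libraries allow, and after adjustment over the 26 genes this was 0.0903, so none passed the threshold.

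B cells, which should lack NK receptors, gave the background for these shares. Their thinned share was 0.126% for Xcl1 and 0.579% for Gzma, but 35.4% for Ltb, 39.7% for Klf2 and 23.7% for Irf8, 3 genes that B cells express themselves. For Tmem176a it was 6.65%, above the 2.38% of the NK-like cells, and the NK-like share was therefore at the background. Il7r was detected in 25.8% against 3.42% (higher in 5 of 6 libraries and tied at ginkgetin replicate 2) and Tnfsf10 in 12.8% against 0% (5 of 6), each with exact p = 0.0625. Before thinning the same shares were 96.4% against 55.3% for Xcl1, 20.6% against 90.7% for Gzma and 54.4% against 3.42% for Il7r.

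**Figure D3:**
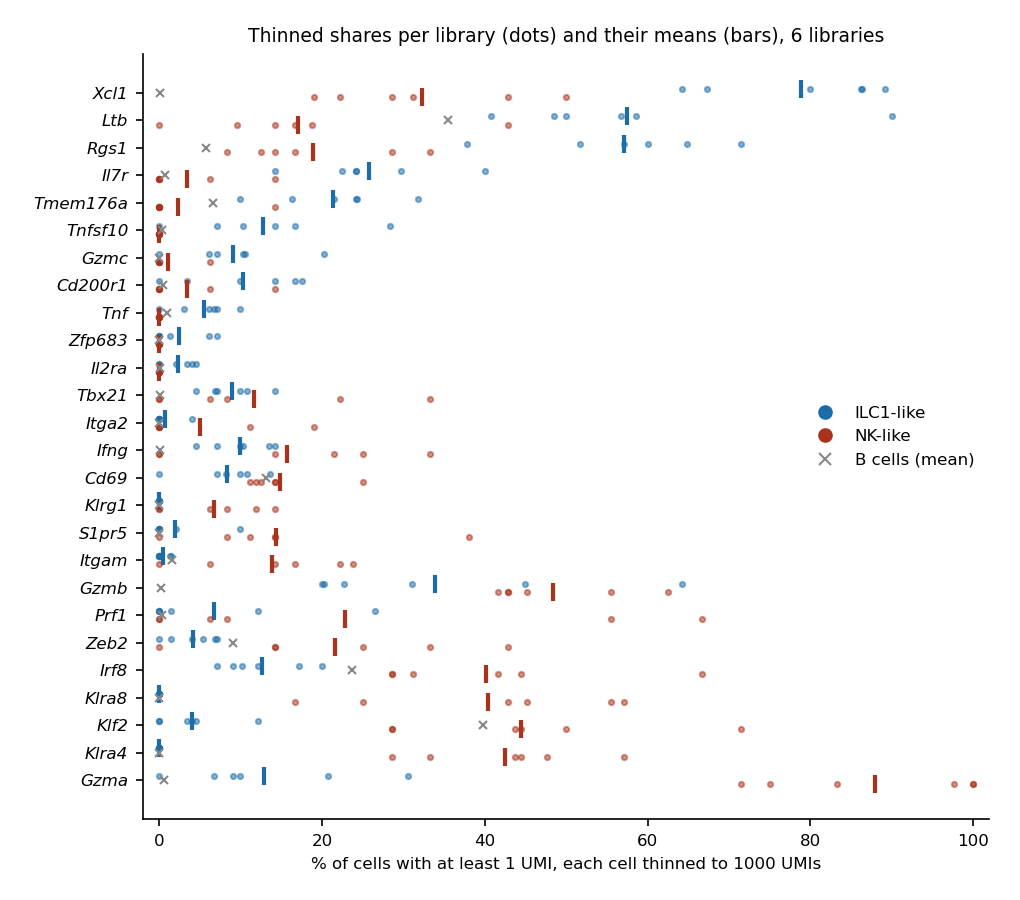
Percent of cells with at least 1 UMI after thinning to 1000 UMIs, for 26 genes (rows). Dots are libraries, bars the means of 6 libraries for ILC1-like (blue) and NK-like (red) cells, and crosses the B cell mean, and for Xcl1 and Gzma the dots of the gates lie apart.

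Within the gate the marker genes overlapped only in part. Of the 138 cells with Il7r and the 47 with Gzma, 20 held both. Tnfsf10 and Gzma were found together in 24 cells, Il7r and Gzmb in 54 and Il7r and Gzmc in 24. Detection in a cell depends on its depth. The shallow ginkgetin replicates 1 and 2 had Tnfsf10 in 1 of 10 and 4 of 14 cells, against 32 of 49 in ginkgetin replicate 3. At 1000 UMIs per cell the mean share of 12.8% rose to 15.4% without ginkgetin replicate 1 and to 13.9% without ginkgetin replicate 2. Both libraries thus stayed below the mean at equal depth, and the part that depth plays was not tested. A UMI of Mki67, Top2a or Birc5, which mark dividing cells, was found in 3, 1 and 3 ILC1-like cells of the vehicle libraries and in 0, 1 and 2 of the ginkgetin libraries.

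The second comparison set the ILC1-like cells against the CD3-positive NK-receptor cells, in all 6 libraries with the library as a block. ILC1-like cells had higher Klrb1a, Klrb1b, Xcl1, Ccl3, Ccl4, Tmem176a and S100a4 and lower Gramd3, Ly6a, Ly6c2, Klra7 and T cell signalling genes. Of 2364 genes tested 50 were called (2.12%), 31 higher (1.31%) and 19 lower (0.804%). Of 16 tested ILC1 genes 6 were higher and none lower, with a median log2 fold change of 0.78 against -0.02 over all genes. Il7r (0.77 ± 0.18) and Tnfsf10 (0.79 ± 0.18) were among those under the fold limit, and Ltb did not differ beyond its error (0.04 ± 0.13, edgeR adjusted p = 0.950).

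Among the genes called higher that differed the same way in every library, Klrb1a (2.84 ± 0.23) and Klrb1b, relatives of the gate gene Klrb1c, had the largest rises. Klrb1b was at 441, 546 and 401 CPM (vehicle) and 459, 390 and 554 CPM (ginkgetin) against 93.7, 57.5, 69.5, 35.9, 11.8 and 61.1 CPM in the CD3-positive cells (2.78 ± 0.18, edgeR adjusted p = 2.59e-14). The Klrb1 genes are close copies of each other, so the values of single members are uncertain, also against the gate gene. Ccl4, an inflammatory chemokine, was at 915, 1321 and 1665 CPM (vehicle) and 1753, 2853 and 3018 CPM (ginkgetin), against 126 to 719 CPM (2.03 ± 0.19, edgeR adjusted p = 3.11e-10), and Ccl3 was higher by 1.84 ± 0.19. Xcl1 was higher by 1.34 ± 0.13 and in 6 of 6 libraries. Fcer1g, the signalling adaptor of NKp46, was higher by 1.59 ± 0.16, S100a4 by 1.88 ± 0.17 and Car2, a carbonic anhydrase, by 1.83 ± 0.23. Cd200r2 (2.44 ± 0.29) and Cited4 (1.97 ± 0.21) were also among the 10 largest of that kind. The called rise of Gzmc was larger than these (3.15 ± 0.28), but Gzmc was not higher in ginkgetin replicate 1, where it was at 0 against 47.9 CPM.

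Of 15 listed T cell genes outside the gate, 4 were tested and 3 were called lower (Lat, Cd28 and Bcl11b), beside 0.804% of all genes. The CD3-positive cells were chosen by their Cd3 UMIs, so this count describes the gates and does not test the list. Bcl11b, which commits cells to the T lineage, was at 9.57 to 40.4 CPM in the vehicle libraries and 0 to 108 CPM in the ginkgetin libraries, against 100 to 303 CPM (-1.85 ± 0.22, edgeR adjusted p = 8.65e-08). Lat, the adaptor of the T cell receptor, and Cd28, a costimulatory receptor, were lower as well (-1.52 ± 0.19 and -1.26 ± 0.22). Gramd3 was at 0, 9.57 and 4.24 CPM (vehicle) and 0, 0 and 3.48 CPM (ginkgetin) against 70.3 to 228 CPM (-5.11 ± 0.40, edgeR adjusted p = 5.92e-12). Ly6a, encoding Sca-1, and Ly6c2 were lower by log2 fold changes of -3.13 ± 0.28 and -2.82 ± 0.21, and Klra7 of -5.07 ± 0.29. Gm12840, Acp5, Plac8 and Klf3 were also among the 10 largest falls that went the same way in every library, between -3.49 and -1.50. Klra9 (-1.91 ± 0.41) was called lower without that, since it was higher in the ILC1-like cells of ginkgetin replicate 2. Counts summed without ginkgetin replicate 3, which holds 267 of the 483 CD3-positive cells, gave 22 calls, 21 of them among the 50.

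The third comparison asked whether the abundance of ILC1-like cells differed with ginkgetin. They made up 1.10%, 0.869% and 1.79% of the kept cells in the vehicle libraries and 0.286%, 0.202% and 1.35% in the ginkgetin libraries. The means were 1.25% ± 0.479 and 0.611% ± 0.637 (SD, n = 3 each), and the groups overlapped through ginkgetin replicate 3. The difference of -0.640 percentage points did not pass the test between unpaired groups (exact permutation test, two-sided, p = 0.3, where 3 against 3 cannot go below 0.1). In each of the 3 replicate numbers the ginkgetin library had the lower share (paired exact permutation p = 0.25, the smallest that 3 pairs allow). Within the same barcode set the difference was -0.739 points in replicates 1 and 2 and -0.444 points in replicate 3. The methods state a filter on UMIs per cell, which as written left 16821 of the 27544 kept cells and may have been meant for genes. It gave shares of 1.63%, 1.33% and 1.34% against 0.334%, 0.201% and 1.06%, without overlap, and the difference was -0.903 points (exact permutation p = 0.1, the smallest possible). Other cell types enter this share. Without the cells that carried another lineage's markers it was -0.132 points, and after thinning all cells to 1000 UMIs before gating 0.00626 points (exact permutation p = 1). In both, replicate 3 turned the other way, at 0.314% (vehicle) against 0.823% (ginkgetin) and at 0.486% against 0.680%, so the lower share in every replicate number did not hold there.

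Within ILC1-like and NK-like cells together, the ILC1-like share was 80.5%, 70.7% and 89.2% in the vehicle libraries, with exact binomial 95% intervals from 70.3% to 88.4%, 54.5% to 83.9% and 80.4% to 94.9%. In the ginkgetin libraries it was 58.8% (32.9% to 81.6%), 66.7% (43.0% to 85.4%) and 53.8% (43.1% to 64.4%). All 3 ginkgetin values lay below all 3 vehicle values, and the means were 80.1% ± 9.22 and 59.8% ± 6.46 (SD, n = 3). The exact permutation p of the -20.3 point difference was 0.1, the smallest that this design allows. Under the UMI filter, and without the cells that carried another lineage's markers, the groups did not overlap either (exact permutation p = 0.1 each). A stricter gate asked for a UMI each of Ncr1 and Klrb1c and none of Cd3, Kdr or Ptprb. Its shares were 83.9%, 66.7% and 91.4% against 75.0%, 66.7% and 58.1%, so the groups overlapped (exact permutation p = 0.3). With gates set after thinning to 1000 UMIs the shares were 76.9%, 77.8% and 90.9% against 80.0%, 85.7% and 68.6%, so that the groups overlapped and the difference was -3.77 points (exact permutation p = 0.6).

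**Figure D4:**
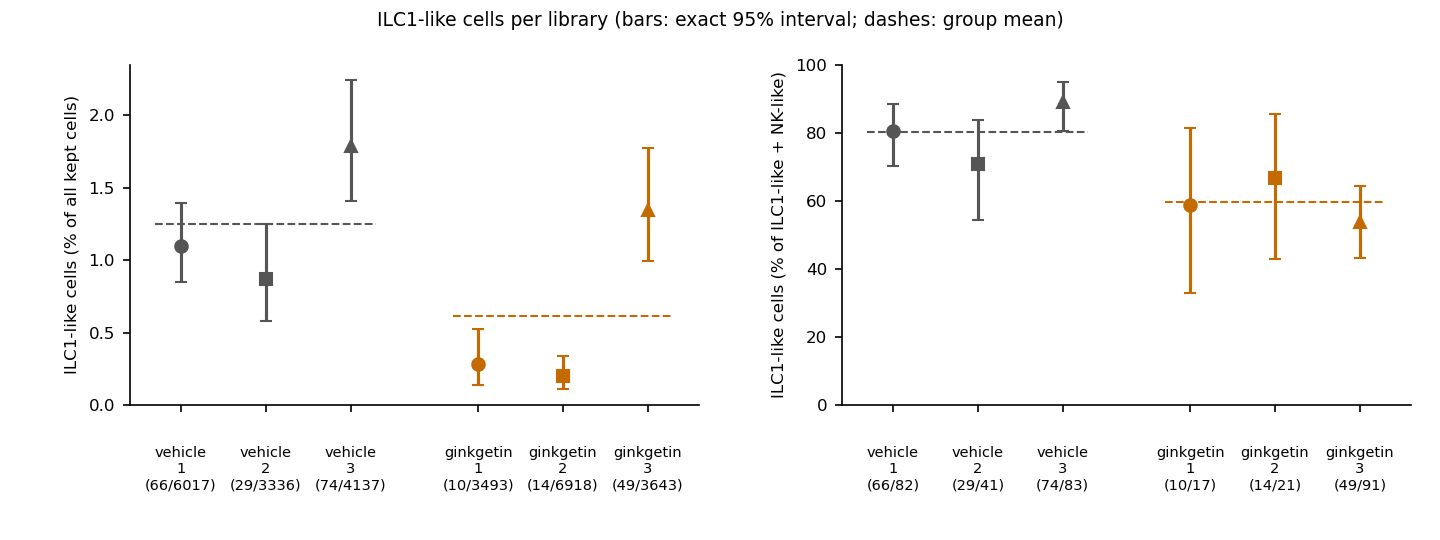
ILC1-like cells as percent of kept cells (left) and of ILC1-like plus NK-like cells (right), 1 point per library with its exact binomial 95% interval (counting error only) and the cell numbers under it. Dashed lines are group means, and on the left ginkgetin replicate 3 (1.35%) lies among the vehicle libraries while on the right the groups do not overlap.

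The fourth comparison asked which genes differed with ginkgetin in the ILC1-like cells (ginkgetin relative to vehicle, 6 libraries, group as the only term). Of 2512 genes tested 1 was called (0.0398%), the heat shock gene Hspa1a, which was lower with ginkgetin. At an unadjusted p under 0.05 there were 205 genes. In this and any sum of cells, fewer transcripts per cell and fewer cells of a subset cannot be told apart. With the replicate number as a block, 53 genes were called (2.11%), 23 higher (0.916%) and 30 lower (1.19%), and values from that fit are named as blocked. With 6 libraries the block leaves little to estimate each gene's own spread by. The blocked p-values therefore rest mainly on a spread pooled over genes. Replicates 1 and 2 deviated no more like their own number than like the other, so the block separates mainly replicate 3, which is also the other barcode set. With the barcode set as the term in place of the number, 26 of the 53 genes were called.

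Hspa1a, an inducible HSP70 chaperone, was at 422, 249 and 373 CPM in the vehicle libraries and at 41.7, 0 and 17.4 CPM in the ginkgetin libraries. The groups did not overlap, and the log2 fold change was -4.43 ± 0.54 (edgeR adjusted p = 0.0323, blocked adjusted p = 8.10e-15). Leaving out any 1 library ended the call, with adjusted p-values from 0.0627 to 0.420 and log2 fold changes from -4.84 to -4.25, and the filter on UMIs described above gave -2.69 (adjusted p = 0.372). The same direction was seen outside the gate. Hspa1a was at 233, 541 and 292 against 0, 61.1 and 19.6 CPM in the NK-like cells, at 455, 218 and 404 against 59.9, 11.8 and 40.0 CPM in the CD3-positive cells, and at 778, 642 and 539 against 114, 55.9 and 66.2 CPM in the kept cells outside the NK receptor gates.

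The other 9 genes of lowest p were not called in the unblocked fit, although the blocked fit called them all. Gzmc, described above, was at 830, 1847 and 965 CPM against 0, 195 and 174 CPM (-3.19 ± 0.66, edgeR adjusted p = 0.361, blocked -3.09 ± 0.35 with adjusted p = 1.74e-15), and every vehicle value lay above every ginkgetin value. The 0 of ginkgetin replicate 1 allows up to 125 CPM. Over 18 alternative fits the log2 fold change of Gzmc ran from -3.66 to -0.75. Outside the NK receptor gates Gzmc was at 0.192 to 1.91 CPM in every library. Klra9, another Ly49 receptor gene, was at 22.0, 9.57 and 10.6 against 125, 390 and 139 CPM (3.72 ± 0.60, edgeR adjusted p = 0.155, blocked 3.55 ± 0.50). It was high in the NK-like cells of both groups, at 434, 221 and 194 against 148, 245 and 525 CPM. Tmem176a was at 382, 316 and 354 against 125, 146 and 164 CPM (-1.31 ± 0.29, edgeR adjusted p = 0.361), and in the kept cells outside the NK receptor gates at 246, 220 and 338 against 106, 111 and 136 CPM.

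Car2 was at 334, 201 and 289 against 83.5, 48.8 and 118 CPM (-1.65 ± 0.38). Slc25a4, the mitochondrial ADP/ATP carrier, was at 158, 105 and 95.5 against 0, 24.4 and 20.9 CPM (-2.69 ± 0.52). Both were lower without overlap, and neither showed such a gap in the kept cells outside the NK receptor gates, where Slc25a4 was at 166, 139 and 121 against 161, 193 and 115 CPM. Car2 was there at 18.2, 17.1 and 6.71 against 13.4, 16.9 and 19.6 CPM. These levels lay far below those of the ILC1-like cells, so the lack of a gap says little for Car2. For neither gene is the fall shown to be particular to the ILC1-like cells. Irf2bpl (1.73 ± 0.35), Mllt6 (1.54 ± 0.33) and Atp2a3, a calcium pump of the endoplasmic reticulum (1.96 ± 0.43), were higher. Atp2a3 was at 25.7, 19.1 and 50.9 against 125, 171 and 150 CPM. Outside the NK receptor gates it was at 7.65, 9.38 and 11.3 against 23.9, 28.1 and 42.3 CPM. Irf2bpl was there at 35.8, 33.2 and 34.7 against 65.6, 65.2 and 80.6 CPM, and Mllt6 at 21.9, 20.0 and 28.5 against 44.7, 49.4 and 69.6 CPM. For these 3 genes the gap was thus also found in the rest of the library. Apoe, a lipoprotein of hepatocytes and macrophages, was at 672, 660 and 577 against 83.5, 293 and 97.5 CPM, and in the kept cells outside the NK receptor gates at 18752, 18462 and 30660 against 2052, 2871 and 3422 CPM. Its level in the ILC1-like cells thus moved with the level in the rest of the library.

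**Figure D5:**
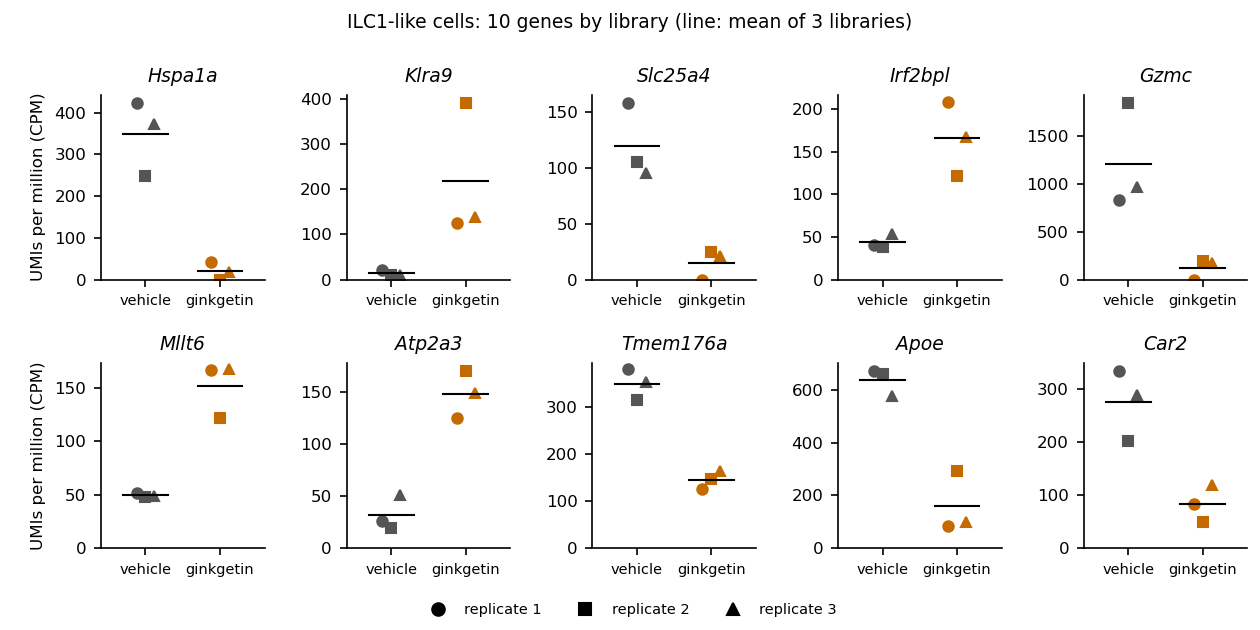
Level (CPM, linear axes from 0) of the 10 genes of lowest p between groups in ILC1-like cells, with 1 symbol per library and a line at the mean of 3 libraries. Hspa1a, Gzmc, Slc25a4, Tmem176a, Apoe and Car2 are lower and Klra9, Irf2bpl, Mllt6 and Atp2a3 higher in all 3 ginkgetin libraries, but only Hspa1a was called without the replicate block.

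The group ranges did not overlap for 392 of 2512 genes (15.6%), 209 with ginkgetin above (8.32%) and 183 below (7.29%), and among the 53 genes of the blocked fit for 20 above and 18 below. Blocked calls with higher levels included Runx3, a factor of cytotoxic and resident lymphocytes, at 195, 124 and 202 against 584, 317 and 352 CPM (1.05 ± 0.32), the death ligand gene Fasl at 51.4, 57.4 and 74.3 against 167, 97.5 and 216 CPM (1.34 ± 0.38) and the integrin gene Itgal (1.10 ± 0.31). Those with lower levels included Ahr (-1.52 ± 0.43), a factor that resident lymphocytes depend on, and the chaperone genes Hspa8 (-1.19 ± 0.28) and Hspe1 (-1.10 ± 0.31). Hspe1 overlapped between groups, at 566, 507 and 399 against 459, 195 and 171 CPM. The hepatocyte and macrophage genes Alb, Apoa2, Apoc1, Fabp1, Mup20, Lyz2 and Cd74 and the plasma cell gene Jchain were also called lower in the blocked fit, and all of them overlapped between groups. With the cells that carried another lineage's markers left out, the blocked fit called 1 of 964 genes, Hspa1a, and tested 26 of the 53.

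Of 17 ILC1 genes tested between groups 0 were called without the block, beside 0.0398% of all genes. With the block 2 were called lower, Tmem176a (-1.29 ± 0.35) and Ahr (-1.52 ± 0.43), beside 2.11% of all genes called. Gzmc, Bcl2a1d (-1.34 ± 0.41), Serpina3g (-1.29 ± 0.32) and Klra9 were other blocked calls that had also been called between ILC1-like and NK-like cells. Without the block 13 had a log2 fold change below 0 and the median was -0.28, against 0.00 for all genes. Xcl1 was at 3698, 3570 and 3607 CPM (mean 3625 ± 66.3, SD, n = 3) in the vehicle libraries and at 2546, 1805 and 2092 CPM (mean 2148 ± 374) in the ginkgetin libraries, without overlap, and was not called (-0.85, edgeR adjusted p = 0.595). The 10 cytotoxic genes tested split evenly, 5 above and 5 below 0, and Gzma did not differ beyond its error (0.67 ± 1.05).

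The interaction of gate and group was fitted in the 3 libraries with at least 10 cells of each gate. The ginkgetin arm was then 1 library, and the only one of the replicate 3 barcode set, so that ginkgetin, that set and that library cannot be told apart. Of 3847 genes 5 were called in this fit (0.13%), with Jchain, Pim1 and Gzma above 0 (0.078%) and Rps25 and Rpl35 below 0 (0.052%). With all 6 libraries none of 912 genes was called by edgeR (76 at an unadjusted p under 0.05, lowest adjusted p = 0.107) and 5 were with the replicate block, and DESeq2 called none in the 3 libraries (7 at an unadjusted p under 0.05). Whether a difference between groups was particular to the ILC1-like cells is not shown by these fits.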

How the data were processed

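The authors isolated LNPCs and made droplet (10x Chromium) libraries per the study's methods, while the labels' extraction text names a bulk RNA kit. They deposited 1 table of raw UMI counts per gene and cell for each of 6 libraries. The submitters' processing notes name GRCm38 and mm10, and the aligner and counter are not given in the sources used here. The members and gene lists were chosen with earlier results of these data known.

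Of 33168 barcodes, 27544 were kept with under 5000 genes and under 5% mitochondrial UMIs. The methods state UMI limits of 250 to 5000, which may have been meant for genes per cell. As a filter on UMIs, they would keep 16821 cells and 133 of the ILC1-like cells and served as an alternative only. No doublet caller was run. Cells with at least 3 UMIs of another lineage's markers (T cell genes not counted) were removed as an alternative. Counts were summed per library and gate and tested with edgeR 4.0.16 (R 4.3.3, filterByExpr, TMM, quasi-likelihood), with DESeq2 1.42.0 as an alternative and shares and exact permutation tests in scipy 1.17.1. The scripts were tested on simulated data. CPM was the share of the summed cells' UMIs, scaled to 1000000. Intervals and limits from a count of 0 cover counting error only.

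The replicate block paired libraries by number, a pairing that the labels do not state. Deviations from group means over 2466 genes correlated at 0.12, 0.11 and 0.47 for libraries of the same replicate number. The correlations with the other number were of the same size for replicates 1 and 2 (0.14 and 0.13). These values thus do not single out the pairing of replicates 1 and 2 by number, and the block separates mainly replicate 3. Named genes were 26 fixed genes, called genes of the lists, the 10 largest called changes in each direction with at least 50 CPM and the same direction in every library, and, with under 10 calls, the 10 genes of lowest p. Cd244a, Il5 and Tcrg-C1 were not analysed here, and values of some list members are not reported here.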

Additional observations from a re-analysis of the deposited data

Results flagged for a closer look

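In 5 genes edgeR's test of the interaction of gate and group passed the threshold in a fit of 3 libraries. Only 1 of them was a ginkgetin library, and it alone was of the replicate 3 barcode set, so these values cannot be read as an effect of ginkgetin. They were log2 differences of 8.63 ± 1.16 for Jchain (adjusted p = 5.85e-06), 1.52 ± 0.34 for Pim1 (adjusted p = 0.00646), 1.16 ± 0.21 for Gzma (adjusted p = 3.80e-05), -1.13 ± 0.25 for Rps25 (adjusted p = 0.00646) and -1.10 ± 0.27 for Rpl35 (adjusted p = 0.0273).

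Jchain, the joining chain of secreted antibodies, was at 38971 CPM in the NK-like cells of vehicle replicate 1, whereas the ILC1-like cells had 44.1, 19.1 and 3324 CPM in the vehicle libraries and 83.5, 244 and 13.9 CPM in the ginkgetin libraries. Its value was 1.55 ± 3.74 in all 6 libraries without the replicate block, -3.51 ± 1.11 with it, and 8.81 ± 0.83 in replicates 1 and 2 alone (edgeR adjusted p = 1.49e-18), so its direction turned with the block. Pim1, a survival kinase, was at 202, 278 and 346 CPM against 167, 268 and 571 CPM in the ILC1-like cells and at 713, 639 and 364 CPM against 297, 428 and 554 CPM in the NK-like cells. The ILC1-like cells had Rps25 at 2732, 2527 and 946 CPM against 2170, 2926 and 651 CPM, and the NK-like cells at 2031, 2654 and 680 CPM against 3168, 2629 and 1152 CPM. Rpl35, like Rps25 a ribosomal protein gene, was at 1381, 1416 and 1449 CPM against 1711, 2902 and 933 CPM in the ILC1-like cells and at 930.1, 1253 and 1166 CPM against 2227, 2996 and 1412 CPM in the NK-like cells. Gzma, low in most ILC1-like libraries, was at its highest in ginkgetin replicate 3. In all 6 libraries edgeR called none of 912 genes (76 at an unadjusted p under 0.05), and 5 with the replicate block, of which Gzma was 1 (1.32). In replicates 1 and 2 alone, with at least 5 cells, the value of Gzma was -0.75 (adjusted p = 0.470), so its direction depended on the libraries used.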

How the results depend on the processing

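The call count between ILC1-like and NK-like cells (117) was 64 under the UMI filter, 57 with DESeq2, 213 without a filter on genes, 19 without the library block, 31 after thinning and 44 in replicates 1 and 2 alone. Leaving out 1 library gave 44 (without ginkgetin replicate 3) to 185 (without vehicle replicate 2). Chosen after seeing the data, all 6 libraries (at least 5 cells) gave 39, the other CD3-low cells as reference 39, at least 5 cells in replicates 1 and 2 alone 29, and at least 5 cells without 1 library 31, 40 and 40 (without vehicle replicates 1, 2 and 3) and 69, 65 and 26 (without ginkgetin replicates 1, 2 and 3). Against CD3-positive cells (50) the counts were 38 under the stricter gate, where 9 of the 17 named genes with a value lost the call, 22 under the UMI filter, 21 with doublets removed, 29 in replicates 1 and 2, 33 with DESeq2, 181 without a filter on genes and 22 without the library block. Leaving out 1 library gave 22 (without ginkgetin replicate 3), 26 and 28 (without vehicle replicates 1 and 3), 82 and 84 (without ginkgetin replicates 1 and 2) and 90 (without vehicle replicate 2).

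Between groups (1) the counts were 0 under the UMI filter (79 at an unadjusted p under 0.05), 0 under the stricter gate (330), 0 in replicates 1 and 2 (147) and 0 without any 1 library (60 to 295), all by edgeR, against 5 with DESeq2, 19 without a filter on genes and 26 with the barcode set as a term. The replicate block, which pairs libraries by number, gave 53. Added after seeing the data, it gave 16 with the UMI filter, 1 with doublets removed and 37, 16 and 27 without replicates 1, 2 and 3, and removing symbols of 1 set gave 2 without the block. For the shares the block gave an exact permutation p = 0.25, the smallest that 3 pairs allow, so it could not have made or ended a call. The interaction count (5) was 2 under the UMI filter, 0 under the stricter gate (102 at an unadjusted p under 0.05) and 0 with DESeq2 (7). Added after seeing the data, at least 5 cells gave 0 (76), 2 in replicates 1 and 2 and 0 without symbols of 1 set (74). It could not be fitted with doublets removed, without any 1 library, in replicates 1 and 2 alone, with the replicate block or with the barcode set at 10 cells.

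The difference in the share of kept cells turned to 0.00626 points when gates were set after thinning, was -0.903 points under the UMI filter (no overlap, exact permutation p = 0.1, the smallest possible) and ran from -0.372 to -1.01 without 1 library. In the doublet alternative the denominator stayed all kept cells. The genes detected in different shares of cells in every library (9) were 15 without thinning. The cause of these changes was not tested. Of the named genes' values under alternatives, 329 (against NK-like cells), 184 (against CD3-positive cells) and 121 (between groups) kept direction and side of the threshold, 19, 17 and 9 lost the call, 41 between groups gained it and 0 reversed. Depth limits ginkgetin replicates 1 and 2, and the NK-like comparison rests on 93 cells.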
